A study of Mus musculus with 9 samples.

Results

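Follicular B cells of mice with an isotype-swapped heavy chain locus gave 6 arrays, 3 from ε homozygotes and 3 from γ1 homozygotes. The mean of these genotypes' means was set against the mean of 3 arrays from mice with the wild-type locus. In this pooled contrast 42 of 12170 genes tested differed with the same sign in both mutant genotypes, neither difference more than 2 times the other. Of these 22 rose and 20 fell. With a single mean for all 6 mutant arrays, 4 of the 42 passed. Of the 42, 3 also passed against wild-type in γ1/γ1 alone. A gene was counted as shared when it passed the pooled contrast, when both genotypes differed from wild-type with the same sign, when the smaller of these differences was at least 0.5 of the larger, and when all 6 mutant arrays lay on 1 side of all 3 wild-type arrays. Il9r, Lilrb4a and Cacna1e stood highest among the genes that rose, and the RNA 4930597A21Rik, Pcp4 and Clec4g lowest among those that fell.

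A naive B cell first makes its antigen receptor with the μ constant region, as IgM, and later also with δ, as IgD. The γ1 and ε constant regions, of IgG1 and IgE, are normally joined to the variable region only after class switching in an immune response. Membrane IgG and IgE have longer cytoplasmic tails than membrane IgM, and all isotypes signal through the paired chains Cd79a and Cd79b. A comparison of both swapped loci with wild-type therefore asks what follows from starting with an isotype other than IgM, as far as this can be seen apart from what is particular to ε or γ1.

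Follicular B cells, naive cells that recirculate between lymphoid organs, were sorted from the spleen. The groups were Ighε/ε, Ighγ1/γ1 and Ighwt, each with 3 single-colour arrays, from mice aged 6 to 12 weeks. Every genotype label, wild-type included, also carries VJk5, which the labels do not explain. How either allele was made is not stated, nor whether replicates came from separate mice, so a p-value covers only the spread among these samples. How much of that spread is technical is not known. The RNA Xist, given below, set replicate 1 of each mutant genotype apart from replicates 2 and 3.

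Values are log2 signals of probe sets, so a difference of 1 is a 2-fold difference, and the array medians lay between 3.53 and 3.69. Of 14 genes that define B cells 11 had a probe set, and all 11 read above the median on all 9 arrays. The X-silencing RNA Xist was low on 2 mutant arrays, at 5.25 (ε/ε replicate 1) and 4.53 (γ1/γ1 replicate 1), and read 10.37 to 10.79 on the other 7. No wild-type array read it low, and counts without these arrays are given beside the results. The 15 macrophage genes with a probe set had a mean level of 3.68 to 3.74 in wild-type, 3.66 to 3.80 in γ1/γ1 and 4.01 to 6.36 in ε/ε, highest in ε/ε replicate 1. Of these genes 11 were tested, 9 had a positive pooled difference and 0 were called, with a median of 0.70, or 0.27 without that array. None of the 17 genes tested among T cell, NK cell, dendritic cell, neutrophil, erythroid and platelet markers was called. Of 5 dendritic cell genes tested 5 had a positive pooled difference, with a median of 0.25 in ε/ε and 0.25 in γ1/γ1. In 2 of them, Flt3 and Zbtb46, all 6 mutant arrays lay above wild-type, beside 1.9% of all genes tested. After quantile normalization the list again held 2 such genes, beside 3.06%. The mean level of the 9 dendritic cell genes with a probe set was 3.74 to 3.79 in wild-type, 3.86 to 4.07 in γ1/γ1 and 3.96 to 4.05 in ε/ε. In bulk RNA, more cells of a type and more RNA per cell cannot be told apart.

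In limma, 101 of the 12170 genes passed the pooled contrast at an adjusted p under 0.05, which is 0.83% of the genes tested. Of these 42 were higher in the mutants (0.345%) and 59 lower (0.485%). The 42 shared genes also make up 0.345% of the genes tested, with 0.181% higher and 0.164% lower. Signals of the 6 mutant arrays lay wholly above wild-type for 231 genes (1.9%) and wholly below for 546 (4.49%), so lying apart was common among genes that no test called. That imbalance depended on scaling, since after quantile normalization 373 genes (3.06%) lay above and 280 (2.3%) below. Among the calls 41.6% were higher in the mutants, and 61.3% were under quantile normalization, where 80 genes passed.

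The pooled differences of the shared genes ran from 0.64 to 2.90 for those that rose, with a median of 1.17, and from -1.85 to -0.62 for those that fell, with a median of -0.99. At least 2-fold were 25 of the 42, with 15 higher and 10 lower. Protein-coding genes made up 35 of them and 3 were long noncoding RNAs. They were spread over 17 named chromosomes with no more than 5 on any, and 1, Gpr34, lies on the X chromosome. Because the rule asks for a call, for 1 sign and for arrays that do not overlap, the agreement between genotypes among these genes is what chose them and is given as a description. Both genotypes are also set against the same 3 wild-type arrays.

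**Figure D1:**
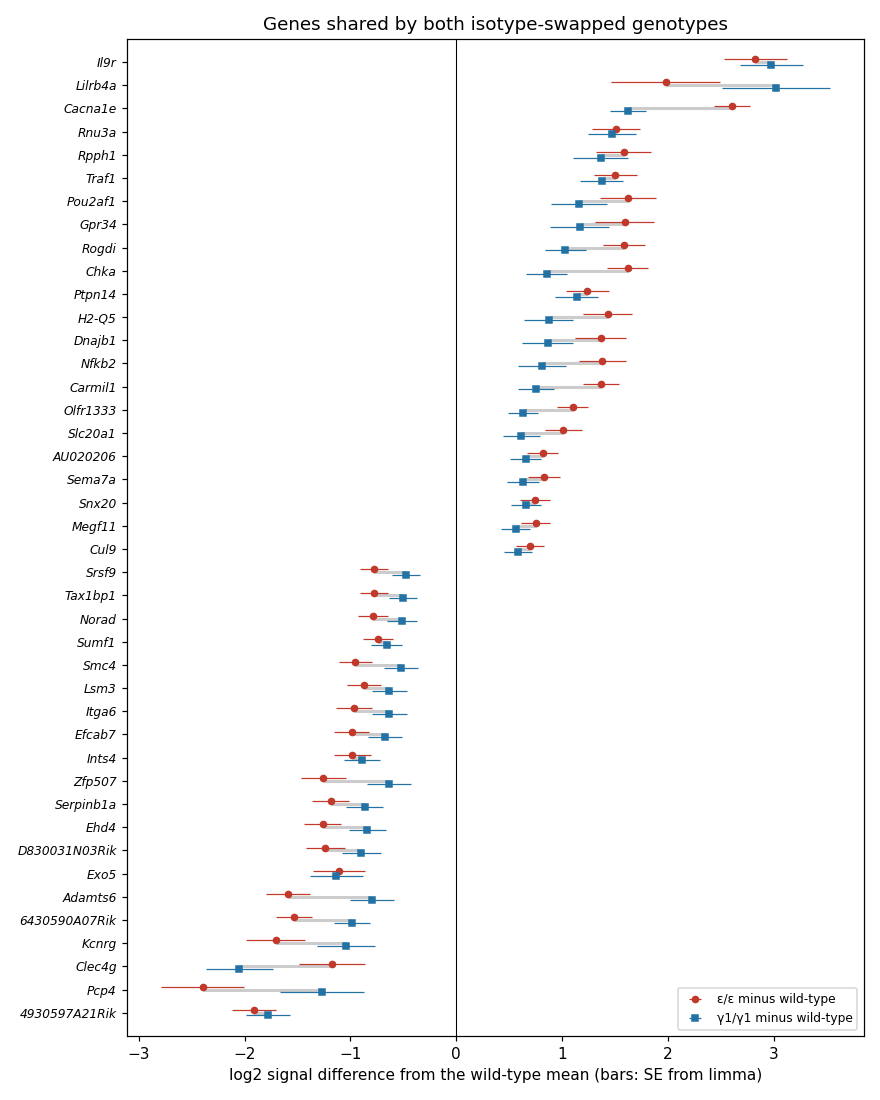
Log2 difference from the wild-type mean (horizontal axis) for each of the 42 shared genes, with ε/ε as circles, γ1/γ1 as squares and bars of 1 SE. Both symbols of a gene lie on 1 side of 0 by the rule, from Il9r at the top with 2.82 and 2.98 to 4930597A21Rik at the bottom with -1.91 and -1.78.

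Promoter sequences are shown for 4 of the genes that rose, the receptor Il9r, the channel Cacna1e and the pair Traf1 and Nfkb2 of the NF-kB pathway, as genes that rose together. The RefSeq table of the GRCm38.p6 assembly gives each start site with 250 bases before it and 50 after it, and the 120 bases before the start are printed 5′ to 3′ on the gene's strand. Capitals mark matches to the NF-kB consensus. The search covered both strands, was chosen after the values had been seen, and lets matches overlap.
Nfkb2, chr19:46304617-46304736, plus strand: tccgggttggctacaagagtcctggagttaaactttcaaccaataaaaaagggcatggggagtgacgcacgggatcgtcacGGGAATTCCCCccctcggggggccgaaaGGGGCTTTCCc
Traf1, chr2:34961773-34961892, minus strand: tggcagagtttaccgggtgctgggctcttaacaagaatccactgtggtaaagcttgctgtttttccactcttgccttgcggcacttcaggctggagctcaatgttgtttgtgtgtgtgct
Il9r, chr11:32200280-32200399, minus strand: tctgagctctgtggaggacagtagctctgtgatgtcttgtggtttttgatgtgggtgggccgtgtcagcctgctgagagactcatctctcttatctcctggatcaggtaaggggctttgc
Cacna1e, chr1:154725921-154726040, minus strand: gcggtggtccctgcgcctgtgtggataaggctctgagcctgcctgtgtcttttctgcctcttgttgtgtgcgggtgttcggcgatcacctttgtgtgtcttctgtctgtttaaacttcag

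The first listed start site of Nfkb2 held 3 matches, of which a pair overlap, and no match lay in the windows of Traf1, Il9r and Cacna1e. The NF-kB consensus was found in 4.51% of the 32851 promoters of the table and in 5.12% of the 11862 promoters of genes tested. Of the shared genes 26 have a promoter there, 31 promoters in all, and 3 of these genes held a match, Nfkb2 and 2 genes that fell, D830031N03Rik and Tax1bp1. The AP-1 motif TGANTCA, present in 7.81% of all promoters and 5.46% of those of genes tested, was found only in Nfkb2 among these genes. The octamer ATGCAAAT, present in 1.74% and 1.30%, was found in 0 of them. A heat shock element, searched as GAANNTTC and present in 7.86% and 5.93%, was found in Slc20a1 and Srsf9. A match is a string of letters in this window and not a measured site, and none of these 4 motifs was found in more than 3 of the 26 genes.

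Il9r encodes the ligand-binding chain of the interleukin 9 receptor, which pairs with the common gamma chain and signals through Jak and Stat proteins. It read 6.29, 5.12 and 6.10 on the wild-type arrays, 8.52, 9.03 and 8.44 on the ε/ε arrays and 8.53, 8.88 and 9.03 on the γ1/γ1 arrays. The lowest mutant array stood more than 2 log2 units above the highest wild-type array, and the genotypes of the mutants interleaved. The mutant mean was 8.74 ± 0.27 (SD, n = 6) against 5.84 ± 0.63 (n = 3), a rise of 2.90 (SE 0.26, limma adjusted p = 0.00195) or 7.47-fold. The ε/ε minus γ1/γ1 difference was -0.15 with a 95% interval of -0.81 to 0.51. Il9r passed with each of the 9 arrays left out (adjusted p up to 0.0148) and in the 7 arrays of high Xist (adjusted p = 0.0155).

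Cacna1e, the pore subunit of an R-type voltage-gated calcium channel, also rose in both genotypes. Its wild-type arrays read 4.12, 4.34 and 4.27, its ε/ε arrays 6.77, 6.69 and 7.08 and its γ1/γ1 arrays 6.13, 5.83 and 5.65. The 3 groups formed separate steps, with γ1/γ1 between wild-type and ε/ε. The pooled rise was 2.11 (SE 0.15, adjusted p = 0.000568), or 4.32-fold, and it passed with each array left out (adjusted p up to 0.00600). It was the only shared gene that also differed between the mutants, by 0.98 more in ε/ε (95% interval 0.60 to 1.35, adjusted p = 0.0166).

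Traf1 and Nfkb2 belong to the NF-kB pathway, which carries signals of the B cell receptor, CD40 and the BAFF receptor. Traf1, an adaptor bound by TNF receptor family members and itself a known NF-kB target, read 4.82, 4.63 and 4.51 in wild-type, 6.11, 6.15 and 6.20 in ε/ε and 5.55, 6.15 and 6.38 in γ1/γ1. The lowest mutant array was γ1/γ1 replicate 1, which also had low Xist, and it still lay above every wild-type array. Traf1 rose by 1.44 (SE 0.18, adjusted p = 0.0112), or 2.71-fold, with a difference of 0.13 between the mutants (95% interval -0.32 to 0.58). The call was lost without wild-type replicate 2 (adjusted p = 0.0856) or replicate 3 (0.0736).

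Nfkb2 encodes p100, the precursor of the p52 subunit of the noncanonical pathway. It read 5.89, 4.99 and 5.27 in wild-type, 6.82, 6.72 and 6.76 in ε/ε and 5.91, 6.31 and 6.37 in γ1/γ1. The highest wild-type array, replicate 1, all but touched the lowest γ1/γ1 array, replicate 1. The rise was 1.09 (SE 0.19, adjusted p = 0.0370), or 2.14-fold. It passed only without γ1/γ1 replicate 1 (adjusted p = 0.0447) or without wild-type replicate 1 (0.0238) and missed the threshold with any other array left out, at up to 0.185. Nfkb2 overlaps Psd and 4833438C02Rik in the annotation.

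Lilrb4a and Gpr34 encode surface receptors that B cells share with myeloid cells. Lilrb4a, an inhibitory receptor with immunoreceptor tyrosine-based inhibitory motifs, read 4.20, 2.96 and 5.33 in wild-type, 6.06, 6.30 and 6.06 in ε/ε and 7.50, 7.63 and 6.41 in γ1/γ1. Its wild-type arrays were far apart, but all lay below the mutants. It rose by 2.50 (SE 0.44, adjusted p = 0.0370), or 5.65-fold, and its γ1/γ1 difference of 3.02 exceeded the ε/ε difference of 1.98. Wild-type replicate 2 read below its array median of 3.64, so the size of these differences is uncertain. Between the mutants the difference was -1.04 (95% interval -2.18 to 0.10). The call held in 1 of the 9 fits with an array left out, that without wild-type replicate 3 (adjusted p = 0.0356), and reached 0.129 without wild-type replicate 2. Lilrb4b is a near-identical neighbour, so the signal may come from either gene.

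Gpr34, a receptor for lysophosphatidylserine, read 3.58, 4.17 and 3.88 in wild-type, 5.98, 5.10 and 5.31 in ε/ε and 4.90, 5.53 and 4.70 in γ1/γ1. It rose by 1.38 (SE 0.24, adjusted p = 0.0370), or 2.60-fold, highest in ε/ε replicate 1. That array also had the highest mean macrophage level, 6.36. Mean macrophage levels were 3.66 to 3.80 in γ1/γ1 and 3.68 to 3.74 in wild-type, and mean dendritic cell levels were 3.86 to 4.07 and 3.74 to 3.79. The part of myeloid cells in the values of Lilrb4a and Gpr34 was not tested. Without ε/ε replicate 1 Gpr34 still passed (adjusted p = 0.0487), without ε/ε replicate 2 likewise (0.0381), and with any other array left out it missed the threshold, at up to 0.174. Gpr34 lies inside Cask in the annotation.

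Pou2af1 and Ptpn14, both members of gene lists used here, also rose in both genotypes. Pou2af1, the B cell coactivator of the octamer-binding factors Oct1 and Oct2, read 8.58, 7.44 and 8.17 in wild-type, 9.48, 10.01 and 9.57 in ε/ε and 9.05, 9.24 and 9.38 in γ1/γ1. It rose by 1.39 (SE 0.23, adjusted p = 0.0329), or 2.63-fold, and no mutant array overlapped wild-type. The call was lost without any 1 of the γ1/γ1 arrays (adjusted p 0.0513 to 0.0807), wild-type replicate 2 (0.116) or replicate 3 (0.140).

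Ptpn14, a cytosolic tyrosine phosphatase listed here among marginal zone B cell markers, read 4.75, 4.49 and 4.83 in wild-type, 6.20, 5.89 and 5.69 in ε/ε and 5.84, 6.16 and 5.49 in γ1/γ1. The mutants interleaved, and the difference between them was 0.10 (95% interval -0.35 to 0.55). The rise of 1.19 (SE 0.18, adjusted p = 0.0217), or 2.28-fold, was lost without γ1/γ1 replicate 2 (0.0523) or without any wild-type array (0.0794 to 0.119).

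**Figure D2:**
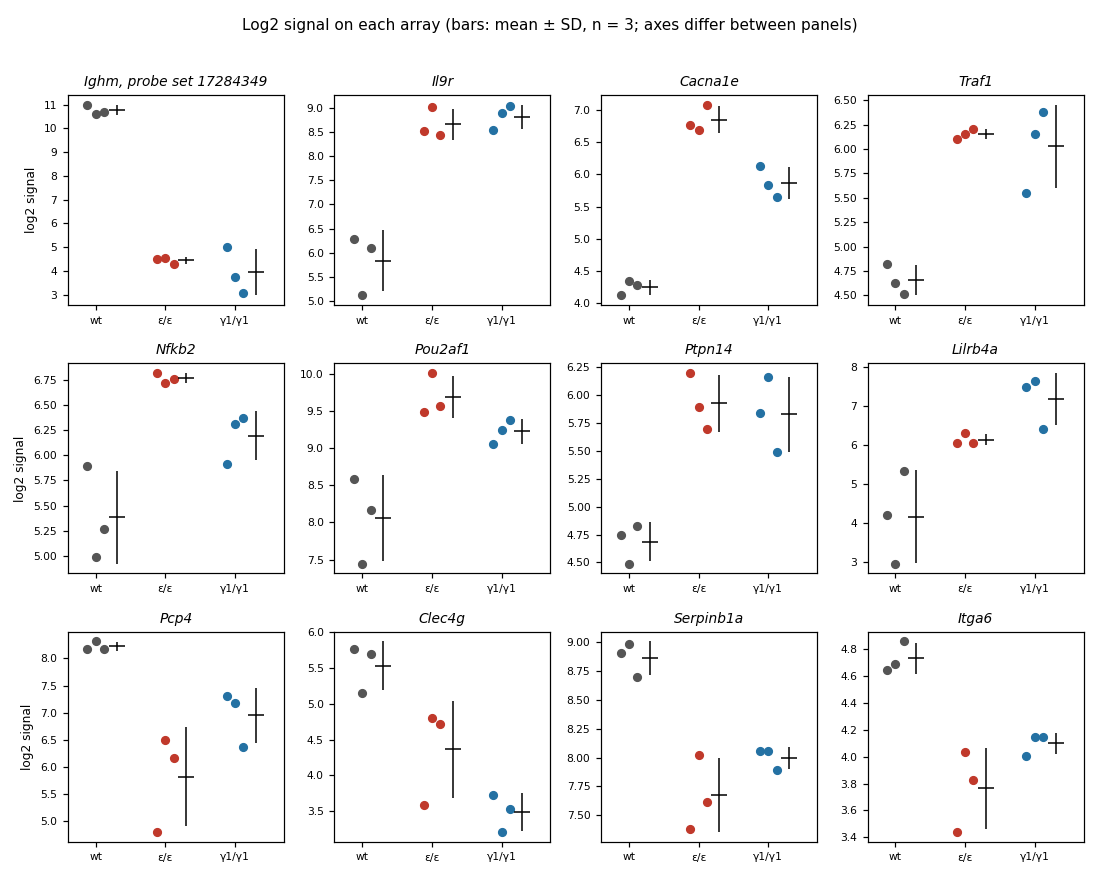
Log2 signal on each of the 9 arrays (points) for an Ighm probe set and 11 shared genes, with the mean and SD of each genotype (n = 3) as bars and an axis of its own in each panel. In every panel the ε/ε and γ1/γ1 points lie on the same side of the wild-type points, with Il9r between 8.44 and 9.03 in the mutants and 5.12 to 6.29 in wild-type.

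Other protein-coding genes rose by 0.64 to 1.31. Chka, choline kinase alpha of phosphatidylcholine synthesis, rose by 1.24, Rogdi by 1.31, and Carmil1, a regulator of actin capping protein, by 1.06. Dnajb1, a co-chaperone of Hsp70, rose by 1.11 (SE 0.21, adjusted p = 0.0440), with 5.57 to 6.05 in wild-type and 6.39 to 7.44 in the mutants. Slc20a1, a sodium-dependent phosphate transporter, rose by 0.81, and Sema7a, a membrane-anchored semaphorin, by 0.73. Snx20, a sorting nexin, rose by 0.70 and Cul9, a cullin, by 0.64. Adjusted p-values of these genes lay between 0.0161 and 0.0440.

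The olfactory receptor gene Olfr1333 and Megf11, a protein with EGF-like repeats, rose by 0.87 and 0.66. The wild-type mean of Megf11 was not above the array medians. H2-Q5 rose by 1.15 (adjusted p = 0.0365). The gene table lists it as a transcribed pseudogene, and its class I relatives are close enough that the source of the signal is uncertain. For Chka and H2-Q5 a second probe set gave smaller differences, 0.07 and 0.51.

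Noncoding RNAs were also among the genes that rose. Rnu3a, a gene of the U3 RNA that guides early cleavage of the ribosomal RNA precursor, read 8.86, 8.74 and 7.99 in wild-type, 10.26, 9.84 and 10.02 in ε/ε and 9.95, 9.87 and 10.18 in γ1/γ1. It rose by 1.49 (SE 0.20, adjusted p = 0.0161), or 2.81-fold, and the mutants differed by 0.04 (95% interval -0.47 to 0.55). Because U3 genes are nearly alike in sequence, the signal cannot be given to a single copy.

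Rpph1, the RNA subunit of ribonuclease P, which trims the 5′ end of transfer RNAs, read 9.23, 8.14 and 8.27 in wild-type, 10.08, 10.15 and 10.15 in ε/ε and 10.18, 9.77 and 9.78 in γ1/γ1. Its rise was 1.47 (SE 0.22, adjusted p = 0.0236), or 2.78-fold. Both calls were lost without γ1/γ1 replicate 2, γ1/γ1 replicate 3 or wild-type replicate 2, and that of Rpph1 also without wild-type replicate 3 (adjusted p up to 0.0786 for Rnu3a and 0.140 for Rpph1). AU020206, whose kind the gene table does not give, rose by 0.74 from 9.12, 9.18 and 9.20 in wild-type to between 9.70 and 10.23.

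Among genes that fell, the long noncoding RNA 4930597A21Rik differed by about as much in both genotypes. It read 5.47, 4.69 and 5.14 in wild-type, 3.14, 3.39 and 3.04 in ε/ε and 3.36, 3.09 and 3.52 in γ1/γ1. The mutant mean of 3.26 did not lie above the array medians, so no fold is given. On the log2 scale it fell by 1.85 (SE 0.18, adjusted p = 0.00386). It passed with each array left out (adjusted p up to 0.0356). 6430590A07Rik, also a long noncoding RNA, which overlaps Abhd18, fell by 1.26 (SE 0.15, adjusted p = 0.00912), from 4.99 to 5.43 in wild-type to 3.38 to 4.25 in the mutants. It missed the threshold only without wild-type replicate 2 (adjusted p = 0.0663).

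Pcp4, a small peptide that binds calmodulin and alters its calcium exchange, read 8.18, 8.31 and 8.17 in wild-type, 4.80, 6.50 and 6.18 in ε/ε and 7.30, 7.18 and 6.37 in γ1/γ1. The wild-type arrays agreed closely while the mutants spread over more than 2 log2 units, lowest in ε/ε replicate 1. It fell by 1.83 (SE 0.34, adjusted p = 0.0431), or 3.56-fold. The call held only without ε/ε replicate 1 (adjusted p = 0.0293) or ε/ε replicate 2 (0.0366) and otherwise rose to between 0.0545 and 0.230.

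Clec4g, a C-type lectin, read 5.77, 5.15 and 5.69 in wild-type, 3.58, 4.80 and 4.71 in ε/ε and 3.73, 3.20 and 3.53 in γ1/γ1. It fell by 1.61 (SE 0.27, adjusted p = 0.0349). Its ε/ε replicate 1 and γ1/γ1 replicates 2 and 3 read below their array medians, so the size of the fall is uncertain in both genotypes. With that limit, Clec4g was among the 4 shared genes with the larger difference in γ1/γ1. The others were Il9r, Lilrb4a and Exo5, a single-strand DNA exonuclease that fell by 1.12. The call of Clec4g held only with an ε/ε array left out (adjusted p up to 0.0396) and otherwise rose to as much as 0.174.

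Serpinb1a, an inhibitor of neutrophil-type serine proteases, read 8.90, 8.98 and 8.70 in wild-type, 7.39, 8.02 and 7.62 in ε/ε and 8.05, 8.05 and 7.89 in γ1/γ1. It fell by 1.02 (SE 0.15, adjusted p = 0.0217). Ehd4, which shapes endosomal membranes, fell by 1.05 (SE 0.15, adjusted p = 0.0215). Itga6, the integrin α6 chain of laminin receptors, read 4.65, 4.69 and 4.86 in wild-type, 3.44, 4.03 and 3.83 in ε/ε and 4.01, 4.14 and 4.14 in γ1/γ1. It fell by 0.80 (SE 0.14, adjusted p = 0.0378).

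Adamts6, a secreted metalloprotease, fell by 1.20 and Kcnrg, a regulator of potassium channels that overlaps Trim13 and Dleu2, fell by 1.37. The mutant means of Kcnrg and of Efcab7, an EF-hand protein that fell by 0.83, did not lie above the array medians. Sumf1, which activates sulfatases, fell by 0.70, and Tax1bp1, a partner of the NF-kB inhibitor A20 and an autophagy receptor, fell by 0.64.

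Ints4, a subunit of the Integrator complex that processes small nuclear RNAs, fell by 0.94 from 7.27 to 7.59 in wild-type to 6.23 to 6.79 in the mutants (SE 0.15, adjusted p = 0.0299). Lsm3, of the U6 small nuclear ribonucleoprotein, fell by 0.75 and Srsf9, a splicing factor that overlaps Gatc, fell by 0.62. Smc4, a condensin subunit whose gene holds Mir15b and Mir16-2, fell by 0.74. Norad, a long noncoding RNA that binds Pumilio proteins, fell by 0.65, and the zinc finger gene Zfp507 fell by 0.95. D830031N03Rik, which overlaps Macf1, fell by 1.07. A second Norad probe set gave -0.29, and other probe sets of Zfp507 gave -0.82 and 0.22.

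The contrast of ε/ε with γ1/γ1, which uses no wild-type array, was tested beside the pooled one. In it 324 of all 12170 genes passed (2.66%), and of the 42 shared genes 1 did, Cacna1e. That low count follows in part from the rule, which caps how far the genotypes may differ. The 95% interval of the difference excluded 0 for 17 of the 42 and for 19.9% of all genes tested. Its half-width among the shared genes ran from 0.29 to 1.14 log2 units, so a gene that missed the threshold is not shown to respond alike in both.

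The difference from wild-type was larger in ε/ε for 38 of the 42 shared genes and for 66.0% of all genes tested. The ε/ε and γ1/γ1 differences are both part of the pooled contrast that chose these genes, so the counts that follow are a description. Taken alone against wild-type, 41 of the 42 passed in ε/ε, where 6.34% of all genes did, and 3 passed in γ1/γ1, where 0.0411% did. These 3 were Il9r, Cacna1e and 4930597A21Rik, also called in ε/ε. For the other 39 genes the γ1/γ1 difference had the sign of the ε/ε difference and a size of at least 0.5 of it by the rule, without passing a test of its own. Clec4g was the gene not called in ε/ε alone (adjusted p = 0.0540).

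**Figure D3:**
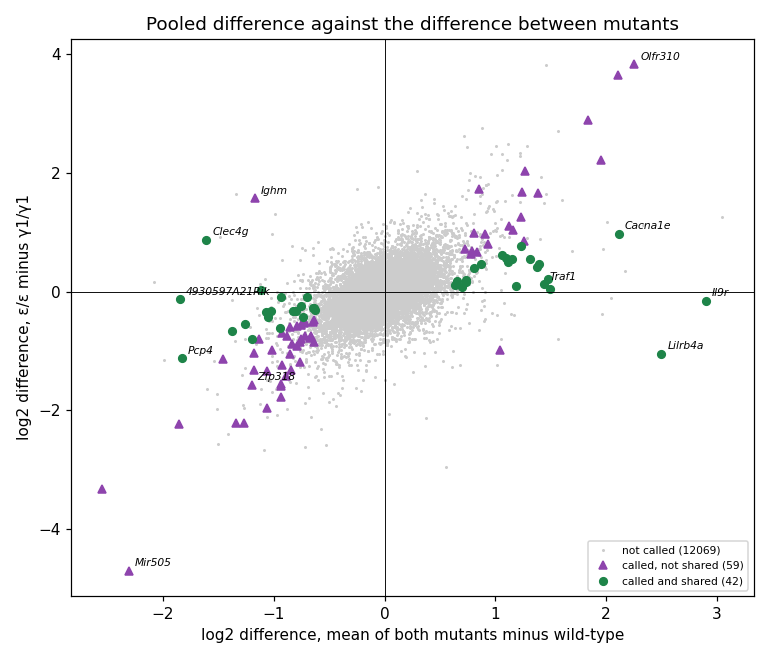
Log2 difference of the mean of both mutants from wild-type (horizontal axis) against ε/ε minus γ1/γ1 (vertical axis) for all 12170 genes tested, with 42 shared genes as green circles, 59 other called genes as purple triangles and the rest as grey dots. Shared genes lie between -1.12 (Pcp4) and 0.98 (Cacna1e) on the vertical axis, with Il9r at 2.90 and -0.15, while Olfr310 lies at 3.83 and Mir505, which read below the array medians in ε/ε, at -4.70.

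The count of shared genes depended on how the spread was estimated. When the 6 mutant arrays were given a single mean, so that the difference between ε/ε and γ1/γ1 counted as spread, 4 genes passed (0.0329%), all of them among the 42. They were Il9r (adjusted p = 0.00370), Traf1 (0.0278) and Rnu3a (0.0367), which rose, and 4930597A21Rik (0.00530), which fell. At an unadjusted p under 0.05 there were 1368 genes in that fit and 1970 in the fit with a mean per genotype.

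Single arrays also carried weight, among them wild-type and γ1/γ1 ones. With each array left out in turn, the shared count was 14 without wild-type replicate 1, 3 without replicate 2 and 8 without replicate 3. It was 27 without ε/ε replicate 1, 37 without replicate 2 and 41 without replicate 3, and for the γ1/γ1 arrays it was 33, 5 and 9 in the same order. Il9r, Cacna1e and 4930597A21Rik passed in all 9 of these fits, 6430590A07Rik in 8, and 20 of the 42 genes in fewer than 3. Without wild-type replicate 2 all of the 42 but Il9r, Cacna1e and 4930597A21Rik missed the threshold. In the 7 arrays of high Xist, 10 of the 42 were still called. No named gene reversed its direction between the reported fit and an alternative where either of them called it. Signs of genes called in neither fit were not compared.

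**Figure D4:**
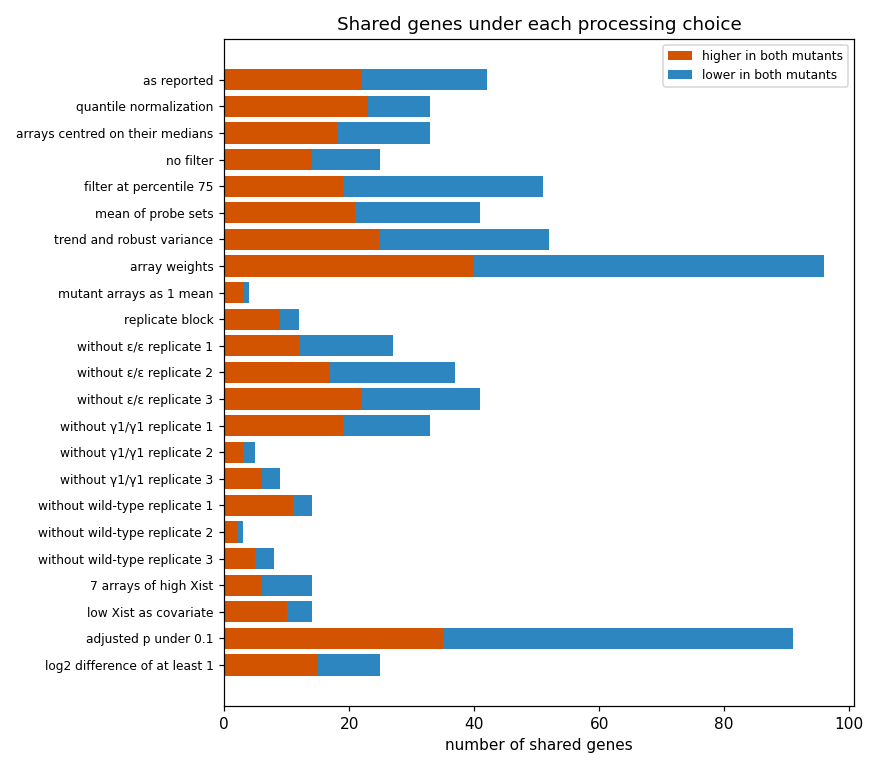
Number of shared genes (horizontal axis) under each processing choice (vertical axis), split into those higher in both mutants (orange) and lower in both (blue). The count is 42 as reported, 96 with array weights, 4 with the mutant arrays as 1 mean and 3 without wild-type replicate 2.

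Of the genes called, 59 were not shared, each because the ratio of its genotype differences fell below 0.5. Of these 25 also had overlapping arrays, and 2 had opposite signs. The difference was larger in ε/ε for 57 of them, beside 66.0% of all genes tested, and larger in γ1/γ1 for 2, Ighm and St8sia6. Of the 59, 43 differed between the mutants, beside 2.66% of all genes tested. A ratio below 0.5 selects for such a difference, so these counts are given as a description. Mir505 read 2.24 to 3.35 in ε/ε, 7.39 to 7.88 in γ1/γ1 and 7.32 to 7.70 in wild-type, so its pooled call (adjusted p = 0.00412) came from the ε/ε arrays. Olfr310 and Mir297a-4 were of the same kind, with γ1/γ1 differences of 0.34 and 0.29 beside ε/ε differences of 4.17 and 3.93. Cldn34b3 read 1.61 to 3.10 in ε/ε, 5.39 to 6.07 in γ1/γ1 and 5.78 to 7.24 in wild-type. In ε/ε both Mir505 and Cldn34b3 read below the array medians, so the size of their falls is not known. At the edge of the rule, the smaller difference was 0.502 of the larger for Adamts6 and 0.509 for Zfp507 on the inside, and 0.497 for Myof and 0.485 for Taf13 on the outside. Exo5 and Zfp507 passed at an adjusted p of 0.0475, and Gbp7 and Cd200 missed at 0.0503.

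Equal values on 2 or more arrays of a genotype were held by 6 of the 42 shared genes and by 3522 of the 12170 genes tested. The γ1/γ1 arrays of Megf11, for example, all read 3.92. How such values arose in the deposited table was not tested, and they make the spread within a genotype smaller.

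Ighm encodes the μ constant region and was measured by 7 probe sets, and in 5 of them all mutant arrays lay below all wild-type arrays. Tested over all probe sets, 2 fell in the pooled contrast. Probe set 17284349 read 10.62 to 11.01 in wild-type and 3.07 to 5.01 in the mutants, a pooled difference of -6.58 (SE 0.34, adjusted p = 0.000121), and 1 mutant array, γ1/γ1 replicate 3, read below its median. Probe set 17284660 read 4.68 to 5.93 in wild-type and 1.77 to 3.14 in the mutants (adjusted p = 0.00991). Since it read below the array medians on all 6 mutant arrays, no size of its fall and no comparison between the mutants is given. The brightest of the 7, used as the gene's value, read 11.27 to 11.56 in wild-type, 10.91 to 11.03 in ε/ε and 8.80 to 9.81 in γ1/γ1 and was not shared. Where the probe sets lie relative to the altered part of the locus was not analysed here.

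The receptor's partners were called in no case. Cd79a differed by 0.67 (SE 0.25, adjusted p = 0.241) and Cd79b by 0.16 (SE 0.13, adjusted p = 0.583). Of 28 genes of B cell receptor signalling 0 rose and 0 fell, against 0.83% of all genes called, with a median difference of -0.01. Of 22 inhibitors of receptor signalling 1 rose, Lilrb4a, and 0 fell, beside 0.345% of all genes that rose.

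Marginal zone B cells sit at the edge of the splenic follicle as a further mature subset, and their markers gave the most calls of the 32 gene lists. Of 14 tested 5 rose, Il9r, Ackr3, Myof, Ptpn14 and Dtx1, and 0 fell, beside 0.345% of all genes that rose. Only Il9r and Ptpn14 were shared. With an array left out 3 or 4 of the list rose, but 1 did without γ1/γ1 replicate 2 or without any of the wild-type arrays, and 2 rose in the 7 arrays of high Xist. Dtx1 missed the threshold in all 9 of these fits (adjusted p up to 0.199). The list's median difference was 0.81 in ε/ε and 0.14 in γ1/γ1 (pooled 0.46), beside -0.01 over all genes tested. Ackr3, a scavenging chemokine receptor, read 6.40 to 6.97 in ε/ε, 4.27 to 5.04 in γ1/γ1 and 4.28 to 4.65 in wild-type. The classical markers Cr2 and Cd1d1 had pooled differences of 0.31 (adjusted p = 0.199) and -0.03 (adjusted p = 0.919). Several of these markers were put on the list with earlier results of these data known. The count of 5 and the list's rank among the 32 therefore follow in part from that choice and are a description only.

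Of 20 NF-kB subunits, inhibitors and targets 2 rose, Traf1 and Nfkb2, and 0 fell, beside 0.345% of all genes that rose, with a median of 0.46 (0.62 in ε/ε, 0.23 in γ1/γ1). Without wild-type replicate 2 or replicate 3 the list held 0 that rose, and with any other array left out 1 or 2. The subunits Rel, Rela and Relb had differences of -0.36, 0.48 and 0.29, none of which passed. Of 27 immediate-early genes 1 rose, the MAP kinase phosphatase Dusp1, and 0 fell, beside the same 0.345%. The list's median was 0.42 (0.59 in ε/ε, 0.21 in γ1/γ1), and 0.28 without ε/ε replicate 1, on which it stood 1.05 above the wild-type means. Dusp1 rose by 1.16 (adjusted p = 0.0416), from 5.57 to 6.30 in wild-type to 6.53 to 6.60 in γ1/γ1 and 7.24 to 8.16 in ε/ε. It passed only without ε/ε replicate 1 or 2 and reached an adjusted p of 0.200 with wild-type replicate 3 left out. Its γ1/γ1 difference of 0.64 was below 0.5 of the ε/ε difference of 1.68.

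Follicular markers numbered 11, of which 0 rose and 1 fell, beside 0.485% of all genes that fell. That 1 was Zfp318, the factor B cells need to make IgD from the long Ighm transcript. It read 9.42 to 9.54 in wild-type, 8.95 to 9.13 in γ1/γ1 and 6.97 to 7.79 in ε/ε, so γ1/γ1 lay between the others. Zfp318 fell by 1.20 (SE 0.18, adjusted p = 0.0217), and missed the threshold without γ1/γ1 replicate 2 or 3 or any wild-type array (up to 0.116). Of 17 survival and apoptosis genes 0 rose and 1 fell, Mcl1, which blocks mitochondrial apoptosis, by 0.64 (SE 0.12, adjusted p = 0.0416). Mcl1 read 9.80 to 9.98 in wild-type, 9.30 to 9.59 in γ1/γ1 and 8.98 to 9.08 in ε/ε, and it missed the threshold with any 1 of the 9 arrays left out (adjusted p up to 0.200). Bcl2 and Jun missed the threshold in the pooled contrast, with differences of -0.72 (adjusted p = 0.0679) and 1.60 (adjusted p = 0.0528), and Bcl2 had opposite signs in the genotypes.

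The 27 genes of the respiratory chain and ATP synthase had medians nearly equal in the genotypes, -0.22 in ε/ε and -0.21 in γ1/γ1. None was called (0 of 27, beside 0.83%). The median pooled difference over all genes tested was -0.01, and the share of them with a negative difference was not counted. Of the 27 genes on the list, 23 had a negative pooled difference. In 7 of them all 6 mutant arrays lay below wild-type, beside 4.49% of all genes, and after quantile normalization in 5, beside 2.3%. The 7 were the complex I subunits Ndufa1, Ndufb5, Ndufs1 and Ndufs3, the complex III subunits Uqcrb and Uqcrc2, and Cox5a of cytochrome oxidase. Ndufs1 had the smallest p of the list, with a difference of -0.52 (adjusted p = 0.0970). The list's median moved from -0.23 to -0.12 under quantile normalization, where the median of all genes was 0.03.

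Of the remaining lists, 14 heat shock chaperones held 1 that rose, Dnajb1. The calls in these lists stand beside 0.345% of all genes that rose and 0.485% that fell. Il9r, Traf1, Dtx1, Ackr3 and Zfp318 are also members of lists described above. Pou2af1 was the 1 call among 25 B lineage transcription factors and among 9 plasma cell genes. Il9r was the 1 call among 16 cytokine receptors, Traf1 among 10 BAFF and CD40 receptors with TRAF adaptors, Dtx1 among 15 genes of the Notch2 pathway, and Ackr3 among 19 regulators of G protein signalling and positioning receptors. Zfp318 was the 1 call among 13 genes of IgM and IgD RNA processing. No gene was called in the lists of cytosolic ribosomal proteins, glycolysis, unfolded protein response, cell cycle, interferon-stimulated genes or MHC class II presentation.

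**Figure D5:**
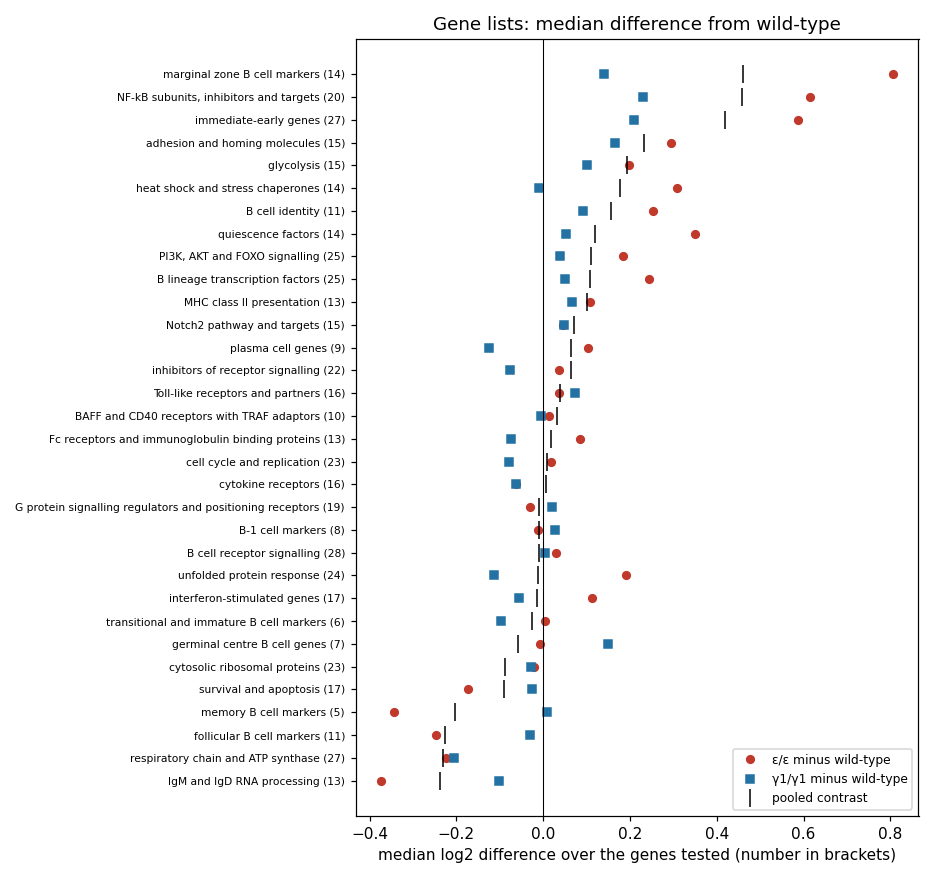
Median log2 difference from wild-type (horizontal axis) over the tested genes of each of the 32 lists (vertical axis, number of genes in brackets), with ε/ε as circles, γ1/γ1 as squares and the pooled contrast as a black bar. The marginal zone list lies at 0.81 in ε/ε and 0.14 in γ1/γ1, whereas the respiratory chain list lies at -0.22 and -0.21.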

How the data were processed

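Transcript levels were measured on single-colour arrays of cDNA amplified from 54 to 360 ng of total RNA, per the labels' protocols. The authors deposited a table of log2 signals for 41345 probe sets. The submitters' processing notes name R 3.3.1. Their background correction, normalization and probe summary are not stated in the sources used here. That values are log2 was inferred from their range, and 0 pairs of arrays were identical. The number of arrays limits the precision.

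The platform annotation paired 23521 probe sets with 1 symbol, 1814 with several and 16010 with none here. The brightest of a gene's probe sets stood for each of 22180 genes, and 12170 read above the array's median on at least 3 of 9 arrays. A model with 1 mean per genotype was fitted to all 9 arrays in limma 3.58.1 under R 4.3.3, with 6 residual degrees of freedom. The pooled contrast was the mean of the ε/ε and γ1/γ1 means minus the wild-type mean. Adjusted p-values are limma's, by Benjamini-Hochberg over the genes tested, with a threshold of 0.05. Gene lists are described by counts and medians, with no set test.

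Members and lists were chosen with earlier results of these data known. The rule named the 15 highest and 15 lowest protein-coding shared genes, up to 5 each way of other kinds, up to 4 members of each list, 6 genes always, and 4 genes that differed most between mutants. Snx20, Cul9, Megf11, Tax1bp1, Srsf9, Myof, Taf13, Gbp7, Cd200, St8sia6 and the uncalled list members are named beyond it, chosen after their values were seen. Alternatives were other scalings, filters, probe set rules, variance models and thresholds, the mutants as 1 mean, the replicate number as a block, arrays left out, and the low-Xist arrays.

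On data simulated for 12170 genes in the pooled contrast, 73 of 100 genes changed by 1 in both mutants were called, and 99 of 100 changed by 2. Of 100 genes changed by 2 in only 1 mutant, 78 were called and 0 counted as shared. Unchanged genes made 10 of 260 calls, and 0 were called with no gene changed. The simulated noise was normal and independent for each gene and array, without equal values or array-wide deviations. These rates therefore need not hold for the measured data. Python 3.11.15 with matplotlib 3.10.9 drew the figures.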

Additional observations from a re-analysis of the deposited data

Results flagged for a closer look

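On 4 of the 86 named genes examined, about the number chance gives, 1 of the 6 mutant arrays lay far from the other 5, by Dixon's ratio of the gap to the range, which chance exceeds in about 1 of 20 groups. Traf1 read 5.55 in γ1/γ1 replicate 1 against 6.11 to 6.38 on the other mutant arrays. Fas, a death receptor, read 5.61 in ε/ε replicate 2, Ifit3, an interferon-stimulated gene, 7.22 in ε/ε replicate 3, and Rplp1, a protein of the ribosomal stalk, 11.19 in γ1/γ1 replicate 1. Of these only Traf1 was called in the pooled contrast.

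In all 15 of the 86 named genes differed between ε/ε and γ1/γ1 by limma's test of that difference (adjusted p under 0.05). Over all genes tested the share was 2.66%. Because Olfr310, Mir297a-4, Cldn34b3 and Mir505 were named for their large difference between the mutants, the count of 15 is a description. Higher in ε/ε were Cacna1e by 0.98, Dtx1 by 0.72, Ackr3 by 2.03, Ighm by 1.57, Olfr310 by 3.83, Mir297a-4 by 3.64, Ppp1r15a, which restores translation after stress, by 1.62, the transcription factor Klf4 by 1.22 and the plexin Plxnb2 by 0.84. The differences were negative, lower in ε/ε, for Zfp318 at -1.57, Bcl2 at -1.87, the IgM receptor Fcmr at -1.65, the chemokine receptor Ccr6 at -1.04, Cldn34b3 at -3.32 and Mir505 at -4.70. The ε/ε arrays of Cldn34b3 and Mir505 read below the array medians, so the size of those differences is not known. For Klf4 and Plxnb2, γ1/γ1 replicates 2 and 3 read below their array medians, so the size of their differences is uncertain. Cacna1e is the only shared gene among the 15. Ighm is given here for its brightest probe set.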

How the results depend on the processing

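Of 1706 values of named genes under the alternatives, 1242 kept their side of the threshold, 447 lost the call and 17 gained one. Reversals of direction with a call in either fit numbered 0, and signs without a call were not compared. List medians stayed within the spread of the mutant arrays in 749 comparisons and left it in 30. From 101 called and 42 shared genes, the counts were 62 and 25 with no filter, 235 and 96 with array weights, 4 and 4 with the mutant arrays as 1 mean, 26 and 14 in the 7 arrays of high Xist, 36 and 14 with low Xist as covariate, 214 and 91 at an adjusted p under 0.1, and 51 and 25 at a log2 difference of at least 1. A ratio of at least 0.67 left 20 shared. With each array left out, called genes ranged from 5 to 108, shared genes from 3 to 41, and genes that differed between the mutants, 324 as reported, from 122 to 330. The latter count was 88 in the 7 arrays of high Xist, 513 with the covariate, 803 at an adjusted p under 0.1 and 173 at a difference of at least 1. Deviations of same-numbered arrays from their genotype means correlated at -0.09 to 0.16, over 0.1 in 1 of 9 pairs. That pair, ε/ε and γ1/γ1 replicate 2, was the highest of all pairs between genotypes. These correlations cannot show whether same-numbered samples were handled together, which was not tested. With the replicate block 35 genes were called and 12 shared. The cause of these changes was not tested.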
